A study of Mus musculus with 13 samples.

Results

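The comparison described here sets 3 old female mice against 3 young ones, all fed ad libitum (free access to food), in single-nucleus RNA sequencing of the hippocampus. Its members were chosen by title: the 3 libraries labelled AL at 24 months of age and the 3 labelled AL at 5 months, 6 of 13 libraries in all. Every mouse was of the C3B6F1 hybrid strain (written C3HB6F1 in the sample labels), and nuclei came from whole frozen hippocampus, so each library holds all hippocampal fields and glia. The replicate numbers are 1, 2 and 4 for the old mice and 1, 2 and 3 for the young. The other 7 libraries are from mice that were 24 months old and on dietary restriction, 3 of them from 20 months of age and 4 from 5 months, and their values are printed only as ranges, although they entered the fits that gave the main standard errors and calls. Each library is taken as 1 mouse, which the labels do not state in words, so p-values measure the spread between libraries.

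The hippocampus stores new memories, and its input passes through the granule neurons of the dentate gyrus, whose axons reach the pyramidal neurons of CA3. The axons of CA3 pyramidal neurons in turn reach those of CA1. Oligodendrocytes wrap axons in myelin and arise from precursor cells that persist in the adult brain, astrocytes take up transmitter and potassium, and microglia are the resident immune cells. In ageing brains glia are known for the expression of complement and inflammatory genes, and a nucleus holds mostly unspliced RNA, so levels here stand for nuclear transcripts and not for protein.

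The 6 libraries held 3524 to 10095 barcodes and 39824010 to 74021154 unique molecular identifiers (UMIs, each standing for one captured RNA molecule), and 3417 to 9250 nuclei remained per library after filtering and removal of doublets. Between 4 and 40 barcodes were shared by any pair of the 13 libraries. Over all libraries 83773 of 98041 nuclei fell in clusters that took a class name from raised markers, and 14268 stayed unnamed. In 3 of the 23 named clusters, astrocyte-like cluster 3 and granule-like clusters 5 and 13, no marker of the class was among the 10 leading genes, though 10 of 10, 5 of 8 and 6 of 8 markers were raised. Classes are written X-like, since they rest on markers and not on an annotation by the authors. The defining markers were present in each class: summed oligodendrocyte markers in oligodendrocyte-like nuclei, for example, were 14360 to 16440 CPM (counts scaled to the total of the class in each library) in old and 15090 to 19520 in young mice. The 2 libraries numbered 1 stood apart in cell makeup, with 4.00% (old) and 0.767% (young) of named nuclei oligodendrocyte-like against 9.06% to 19.6% in the other 4, and the old one held 27.9% astrocyte-like nuclei. Results were also computed without the libraries numbered 1.

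Nuclei of old mice carried more UMIs in every class with age-related calls. Median UMIs per granule-like nucleus were 12799, 7085 and 8178 in old replicates 1, 2 and 4, and 6564, 3881 and 5613 in young replicates 1, 2 and 3. In oligodendrocyte-like nuclei they were 3169, 1988 and 2385 against 1661, 1182 and 1585.5. The classes were therefore compared on sums scaled for library size, and shares of nuclei with a transcript were compared after thinning to one depth. With each library's median UMIs as a covariate, which itself moves with age, 98 calls were made over all classes, against the 1862 described next.

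Oligodendrocyte-like and granule-like nuclei held most of the genes called with age in the fit over all 4 groups. Counts were summed per library and class, and a gene was called at an adjusted p under 0.05 (edgeR's quasi-likelihood test over all 4 groups, Benjamini-Hochberg within the class). In oligodendrocyte-like nuclei 416 of 11368 genes were higher in old mice (3.66%) and 475 lower (4.18%). In granule-like nuclei 409 of 16900 were higher (2.42%) and 147 lower (0.87%). Oligodendrocyte precursor-like nuclei had 79 higher (0.851%) and 66 lower (0.711%) of 9285, and microglia-like nuclei 26 in each direction (0.661% and 0.661%) of 3932. In astrocyte-like nuclei 36 genes were higher (0.314%) and 8 lower (0.0697%) of 11478. Inhibitory neuron-like nuclei had 8 higher (0.0599%) and 5 lower (0.0375%) of 13350. Cajal-Retzius neuron-like nuclei, with 2 qualifying libraries per age, had 98 higher (3.97%) and 63 lower (2.55%) of 2470.

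No gene was called in CA1-like (14819 tested, 0%), CA3-like (12212, 0%), endothelial cell-like (2268, 0%) or mural cell-like nuclei (2010, 0%) with edgeR's test. At an unadjusted p under 0.05 these classes held 2404, 1617, 105 and 86 genes. DESeq2 called 143 higher and 88 lower in CA1-like nuclei, 86 and 51 in CA3-like nuclei, and 0 in the other pair. Without the libraries numbered 1, which leaves 2 old against 2 young, edgeR called 297 higher and 606 lower in oligodendrocyte-like, 895 and 1957 in granule-like, 88 and 380 in precursor-like, 226 and 322 in astrocyte-like, 79 and 73 in microglia-like, 136 and 777 in inhibitory, 62 and 621 in CA1-like and 10 and 269 in CA3-like nuclei. Single libraries also moved the counts. In granule-like nuclei 19, 29 and 24 genes were called without old replicate 2, old replicate 4 or young replicate 2, 162 without old replicate 1 and 2278 without young replicate 1. In oligodendrocyte-like nuclei 121 were called without young replicate 2 and 327 without old replicate 2. Classes differ in nuclei and UMIs, so these counts do not rank classes by how much they age.

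**Figure D1:**
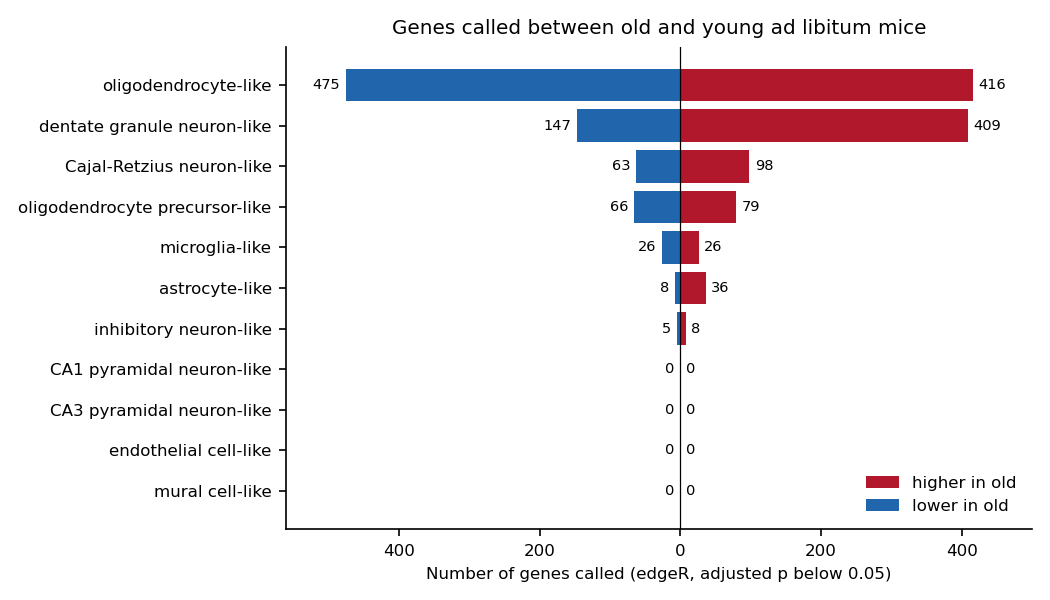
Numbers of genes called higher (right) and lower (left) in old mice against young ones, both fed ad libitum, per marker-defined class, with the x axis in genes and called at an adjusted p under 0.05 by edgeR's quasi-likelihood test. Oligodendrocyte-like nuclei had 416 genes higher and 475 lower, granule-like nuclei 409 and 147, and the endothelial, mural, CA1 and CA3 classes 0.

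The called genes differed in genomic length by direction. In oligodendrocyte-like nuclei the median annotated span was 291.7 kb for genes higher in old mice and 16.8 kb for genes lower, against 29.3 kb over all tested. In granule-like nuclei it was 161.3 and 12.1 kb against 24.9 kb, and in precursor-like nuclei 390.8 and 13.7 kb against 37.8 kb. With the trend of fold change on span removed, the calls were 120 higher and 433 lower in oligodendrocyte-like, 48 and 26 in granule-like, 8 and 12 in precursor-like, 7 and 2 in astrocyte-like, 10 and 16 in microglia-like, 75 and 61 in Cajal-Retzius and 0 in inhibitory nuclei. DESeq2 differs in both its scaling of libraries and its test. It split its calls into 1102 higher and 714 lower in granule-like, 89 and 73 in astrocyte-like, 28 and 18 in microglia-like, 383 and 80 in inhibitory and 38 and 15 in Cajal-Retzius nuclei. The genes described in each class below are those of smallest adjusted p whose old and young values did not overlap, together with called members of the gene lists and genes called in 3 or more classes.

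In oligodendrocyte-like nuclei Cdh8, Eya4 and Mgat4c were among the increases of smallest adjusted p. Cdh8 encodes a classical cadherin, a calcium-dependent adhesion protein, and lies on chromosome 8 (99024471 to 99416471, minus strand, GRCm38, ENSMUSG00000036510), where it overlaps 3 genes on its own strand and 2 on the other. Its level was 9.11, 9.12 and 9.25 log2 CPM in old replicates 1, 2 and 4, and 6.38, 6.70 and 6.38 in young replicates 1, 2 and 3. All old values lay above all young ones, and restricted mice ranged from 8.63 to 9.06. The fold change was 2.66 on the log2 scale (SE 0.15, edgeR adjusted p = 4.62e-13). After thinning each nucleus to 1000 UMIs, 31.5%, 36.5% and 40.1% of old oligodendrocyte-like nuclei held a Cdh8 molecule, against 8.51%, 8.43% and 6.20% of young ones.

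Eya4 encodes a transcriptional coactivator with phosphatase activity (chromosome 10, 23102963 to 23350786, minus strand, GRCm38). It stood at 7.16, 7.42 and 7.65 log2 CPM in old and 4.45, 5.64 and 5.40 in young mice, a rise of 2.03 (SE 0.20, edgeR adjusted p = 1.086e-07). Mgat4c, a glycosyltransferase gene, was at 5.63, 7.14 and 6.98 against 3.53, 4.18 and 4.38 log2 CPM, a rise of 2.70 (SE 0.31). The old and young values of both genes did not overlap. Cdh8, Eya4 and Mgat4c were still called with the span trend removed and with median UMIs as a covariate.

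C4b, which encodes complement component 4, rose in oligodendrocyte-like nuclei from 4.45, 4.43 and 4.16 log2 CPM in young mice to 6.96, 7.91 and 8.75 in old ones. The fold change was 3.92 on the log2 scale (SE 0.55, edgeR adjusted p = 0.002619), with restricted mice at 6.12 to 8.45. The young values rested on 2, 18 and 17 UMIs and the old on 46, 809 and 1087, and it was called in 5 of 6 fits that left out an ad libitum library. C4b was the 1 complement gene of 12 listed that had enough UMIs to be tested in this class.

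Several lists of neuronal and contact genes had called members, read here against the 3.66% of all tested genes called higher and the 4.18% called lower in this class. Of 30 tested genes of synaptic adhesion 12 rose and 1 fell (median log2 fold change 0.54, against 0.007 over all tested genes). Lrrtm4, a postsynaptic adhesion protein that binds neurexins, rose by 2.25 (SE 0.32), and Nrxn3, a presynaptic neurexin, by 2.00 (SE 0.50). Among axon guidance genes 10 of 26 rose and 1 fell (median 0.78). Robo1, the receptor for Slit ligands, was at 10.97, 10.70 and 10.78 log2 CPM in old and 9.66, 9.51 and 9.91 in young mice, a rise of 1.11 (SE 0.14). Of the GABA-A receptor subunits 6 of 11 rose and 0 fell (median 1.20), of the ionotropic glutamate receptors 6 of 15 and 0 (median 0.71), and Grin2a, an NMDA receptor subunit, rose by 1.70 (SE 0.39). Metabotropic glutamate receptors (3 of 5), potassium channels (5 of 21) and cadherins (4 of 20) also had called members, all higher. With the span trend removed 2 synaptic adhesion genes were higher and 4 lower, and for axon guidance 3 and 2.

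Of the genes called higher in oligodendrocyte-like nuclei, 54.8% were at least 2-fold higher in granule-like than in oligodendrocyte-like nuclei, against 15.6% of all genes tested in both classes and 8.55% of those called lower. Summed over 8 granule markers the level was 3818 to 4048 CPM in old and 3018 to 3801 in young oligodendrocyte-like nuclei, but Dock10 alone made up most of that sum. Prox1, the granule lineage transcription factor, was at 237 to 248 CPM in old and 219 to 259 in young mice. Granule-like nuclei themselves held Prox1 at 291 to 319 CPM (old) and 282 to 307 CPM (young). The levels of the 2 classes were close, so Prox1 cannot measure granule RNA within oligodendrocyte-like nuclei. Dsp, the desmosome protein desmoplakin, was at 2.21 to 11.3 CPM in young and 0.39 to 2.89 in old mice, overlapping and on 18 UMIs in all. Glis3, a zinc finger factor, was at 0 to 13.4 CPM in young and 33.3 to 74.3 in old mice. Of the 8 granule markers 5 had a higher mean in old mice. Of 11 inhibitory neuron markers, Gad1, the GABA-synthesising enzyme, was at 2.48 to 9.26 CPM in old and 10.6 to 16.6 in young mice. Adarb2, an RNA-editing family member, was at 59.7 to 107 CPM in young and 120 to 146 in old mice, and the potassium channel Kcnc2 at 0 to 15.5 and 12.4 to 32.4. Of these inhibitory markers Gad1 was lower and Adarb2 higher in old mice without overlap, and Kcnc2 overlapped. The sum of the 11 inhibitory markers was 2284 to 2732 CPM in old against 1999 to 2975 in young mice, with a higher mean in old mice for 5 of 11. Summed CA3 markers were 520 to 568 CPM in young and 693 to 779 in old mice, subicular or cortical ones 170 to 233 and 251 to 295, and precursor ones 124 to 179 and 203 to 216, none overlapping. The part of RNA from other cells in these increases was not tested.

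Among clock genes in this class 3 of 15 rose, where 3.66% of all tested genes were called higher. Nr1d2, a nuclear receptor of the circadian feedback loop, rose from 5.00, 5.42 and 4.98 to 5.71, 6.05 and 6.13 log2 CPM (0.86, SE 0.23, edgeR adjusted p = 0.01817). Per2 and Npas2 were called on few molecules, with 6, 26 and 16 UMIs against 0, 1 and 1 for Per2, and 1, 23 and 16 against 0, 1 and 0 for Npas2. Their fitted folds depend on the prior count and are not given. The time of day at which the mice were killed is not in the labels used here, so it cannot be told apart from age in these clock genes. Kcnq1ot1, the imprinted antisense RNA of the Kcnq1 locus, rose by 1.05 (SE 0.15, edgeR adjusted p = 8.244e-05) and overlaps 5 genes on the other strand.

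The decreases in oligodendrocyte-like nuclei were led by Sycp2, which encodes a protein of the meiotic synaptonemal complex (chromosome 2, 178345293 to 178407685, minus strand, GRCm38). It was at 3.88, 3.74 and 4.13 log2 CPM in old and 5.40, 5.96 and 5.88 in young mice, a fall of 2.04 (SE 0.29, edgeR adjusted p = 8.42e-05) on 4 to 59 UMIs per library. Igf2bp3, an RNA-binding protein of growth factor transcripts, fell by 1.27 (SE 0.21), and Cfl2, the actin-severing cofilin 2, by 1.01 (SE 0.17). Cd180, a Toll-like receptor homologue of immune cells, fell by 2.13 (SE 0.35), and Abhd15 by 1.68 (SE 0.29). Summed microglial markers in these nuclei were 22.6 to 104 CPM in young and 36.3 to 54.5 in old mice, and macrophage markers 0 to 3.84 and 0 to 1.45, and their part in the value of Cd180 was not tested. Old and young values of these 5 decreased genes did not overlap, which was a condition of their choice. After thinning, the shares of nuclei holding Igf2bp3, Cd180, Cfl2 and Abhd15 overlapped between the ages. Those for Sycp2 did not. Young replicate 1 held 47 nuclei in this comparison.

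Housekeeping lists had called members only among the decreases, in a class where 4.18% of all tested genes were lower. Of 80 tested cytosolic ribosomal protein genes 0 rose and 9 fell (median fold change -0.54), and of 77 nuclear-encoded subunits of oxidative phosphorylation 0 rose and 4 fell (median -0.56), a share near that of all genes. With the span trend removed 0 ribosomal protein genes were called. None of 20 myelin and oligodendrocyte maturation genes was called in either direction (median -0.13). Of the 10 oligodendrocyte markers summed in these nuclei, 1 had a higher mean at the old age. That was St18, higher without overlap (4450 to 4620 CPM against 3420 to 4400 in young mice). Mbp was lower without overlap (2940 to 3040 against 3310 to 3570). So were Mog (808 to 967 against 1050 to 1430) and Mag (701 to 877 against 908 to 950), while the other markers overlapped. Cholesterol synthesis, MHC class I and senescence genes had 0 called members in this and in every other class tested. Apoe, the lipid carrier also counted among microglial activation genes, fell by 0.93 (SE 0.25, edgeR adjusted p = 0.03535) in this class.

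**Figure D2:**
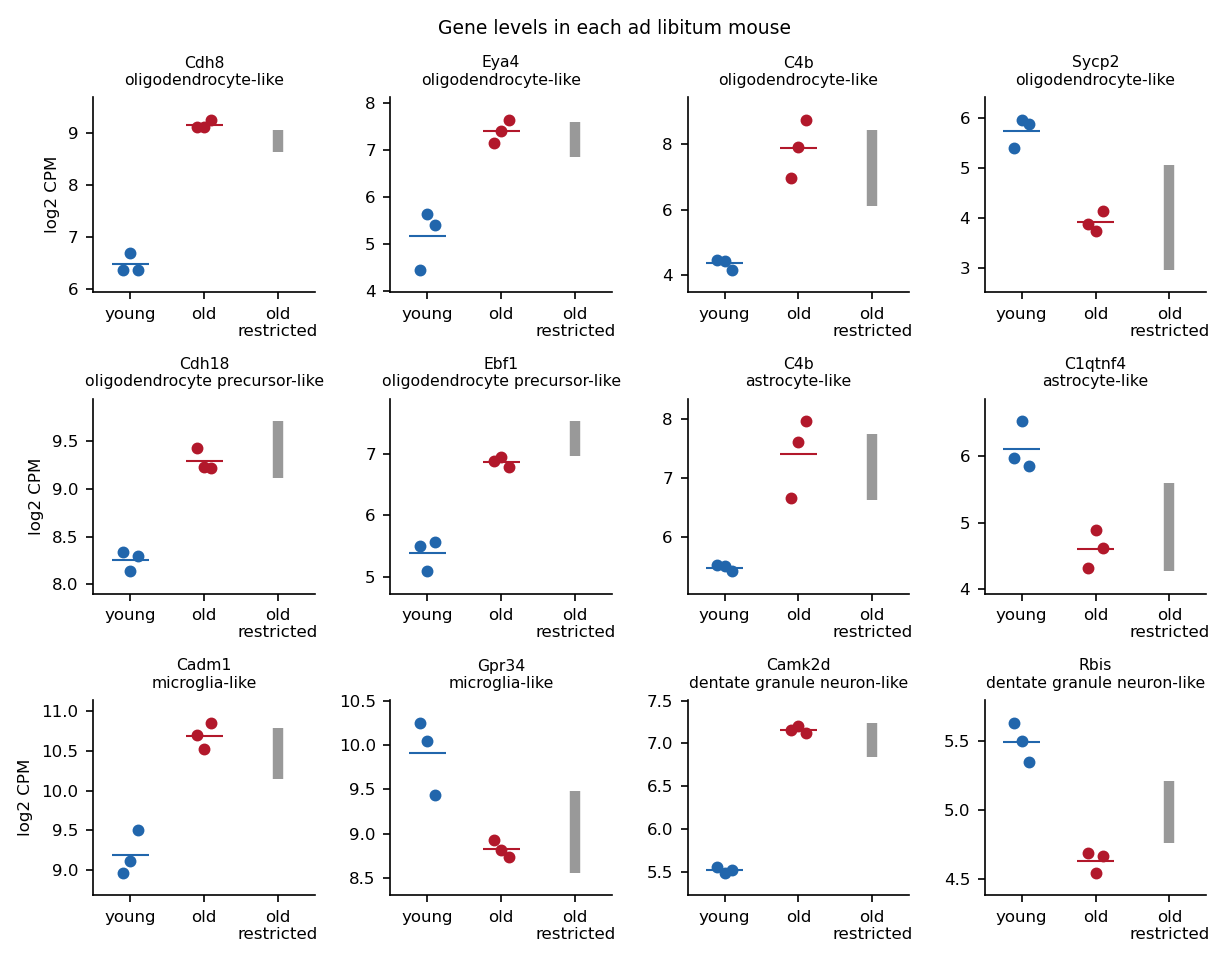
Levels of selected genes in log2 CPM (y axis, prior count 2) in each ad libitum library, old and young side by side, with 1 panel per gene and class, a horizontal line at each mean and a grey bar from the lowest to the highest of the 7 restricted libraries. Cdh8 in oligodendrocyte-like nuclei sits at 6.38 to 6.70 in young mice and 9.11 to 9.25 in old ones, and Camk2d in granule-like nuclei at 5.49 to 5.55 and 7.12 to 7.20.

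In oligodendrocyte precursor-like nuclei Cdh18 and Ebf1 rose. Cdh18, another cadherin gene (chromosome 15, 22549022 to 23474418, plus strand, GRCm38), was at 9.43, 9.23 and 9.22 log2 CPM in old and 8.34, 8.14 and 8.30 in young mice, a rise of 1.03 (SE 0.13, edgeR adjusted p = 8.676e-05). Ebf1, a transcription factor best known from B cells, was at 6.88, 6.95 and 6.78 against 5.50, 5.09 and 5.56, a rise of 1.51 (SE 0.19). Both genes were separated between the ages in all 6 libraries and were called in each of 6 fits that left out an ad libitum library. Gabrb1, a GABA-A receptor subunit, rose by 0.74 (SE 0.12), Rbfox1, a splicing regulator, by 0.56 (SE 0.10), and the long noncoding RNA Lncpint by 0.80 (SE 0.14).

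Mettl23, a protein methyltransferase gene, led the decreases in precursor-like nuclei. It was at 5.61, 5.13 and 5.70 log2 CPM in old and 6.90, 7.11 and 6.86 in young mice, a fall of 1.51 (SE 0.21, edgeR adjusted p = 0.0002198). Flrt3, an adhesion protein that binds latrophilins and Unc5 receptors, fell by 1.59 (SE 0.26), and Manf, a neurotrophic factor of the endoplasmic reticulum stress response, by 1.18 (SE 0.20). Ccdc7b fell by 2.55 (SE 0.43) and Eid1, an inhibitor of histone acetyltransferases, by 1.15 (SE 0.22).

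Of 13 tested genes of precursor identity and cell cycle, in a class where 0.851% of all tested genes were higher and 0.711% lower, Sox5 rose by 0.47 (SE 0.10) and Ccnd1, the cyclin of G1 phase, fell by 0.82 (SE 0.19). The markers Pdgfra and Cspg4 were not called. Summed over 8 precursor markers the level was still higher, at 20650 to 21980 CPM in old and 18080 to 19480 in young mice, with a higher mean for all 8. Markers of committed oligodendrocyte precursors were lower, at 2014 to 2504 CPM in old and 2588 to 3471 in young mice (2 of 7 with a higher mean). Summed oligodendrocyte markers were lower in old precursor-like nuclei, at 339 to 664 CPM against 695 to 979 in young mice. Summed inhibitory neuron markers were higher, at 8665 to 9223 against 6744 to 8013 (6 of 11 with a higher mean). Astrocyte markers were higher too, at 6319 to 6535 against 4685 to 5645 (5 of 10). Most of the inhibitory sum was Erbb4, Nxph1 and Adarb2, and most of the astrocyte sum was Gpc5. Gad1 was at 69.3 to 71.1 CPM in old and 68.6 to 90.1 in young mice, and Sst at 1.07 to 6.93 and 10.6 to 16.1. Of the 79 increases 16.5% were at least 2-fold higher in granule-like nuclei, against 7.35% of all tested, and their part in these results was not tested. The growth factor receptor gene Igf1r rose by 0.66 (SE 0.15, edgeR adjusted p = 0.0267), the 1 called gene of 18 tested for insulin and FoxO signalling in this class. Of 76 ribosomal protein genes 1 fell (median -0.59, against -0.015 over all tested).

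In astrocyte-like nuclei C4b rose, as did Osmr and Aspg, and these 3 were the called genes of 8 tested on the reactive astrocyte list, in a class where 0.314% of all tested genes were higher and 0.0697% lower (0 fell, median log2 fold change 1.26 against -0.03 over all tested). C4b was at 6.66, 7.61 and 7.96 log2 CPM in old and 5.53, 5.51 and 5.43 in young mice, a rise of 1.94 (SE 0.27, edgeR adjusted p = 0.00422), with restricted mice at 6.63 to 7.74. Osmr, the oncostatin M receptor, was at 4.78, 5.44 and 3.68 against 3.44, 3.37 and 3.68, so old replicate 4, with 3 UMIs, lay level with a young library (rise of 1.51, SE 0.32, edgeR adjusted p = 0.04882). Aspg rose by 1.49 (SE 0.30). Osmr was called in 3 of 6 fits that left out an ad libitum library, and Aspg in 2. None of 12 genes of transmitter uptake, water transport and coupling was called.

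The smallest adjusted p among astrocyte-like nuclei belonged to Brinp3, a neural gene of the BMP and retinoic acid response (chromosome 1, 146494760 to 146902472, plus strand, GRCm38). It was at 8.92, 8.78 and 8.81 log2 CPM in old and 7.87, 7.97 and 7.85 in young mice, a rise of 0.95 (SE 0.12, edgeR adjusted p = 0.001557). Cped1 rose by 1.44 (SE 0.19), Plce1, a phospholipase C, by 1.14 (SE 0.16), and Enox1 by 0.95 (SE 0.13). Old and young values of these 4 genes did not overlap.

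Of the decreases C1qtnf4, a secreted protein of the C1q and TNF family, was at 4.32, 4.89 and 4.62 log2 CPM in old and 5.98, 6.53 and 5.85 in young astrocyte-like nuclei, a fall of 1.62 (SE 0.26, edgeR adjusted p = 0.006204). Cep78, a centrosome protein, fell by 1.18 (SE 0.20), Igf2bp3 by 1.24 (SE 0.24), Abhd15 by 1.73 (SE 0.34) and Taf7l by 2.17 (SE 0.43). Markers of inhibitory neurons, summed over 11 genes, were higher in old astrocyte-like nuclei, at 488 to 673 CPM against 268 to 356, with a higher mean for 6 of 11. Most of that sum was Erbb4, while Gad1 was at 16.0 to 20.1 against 14.2 to 26.1. Summed granule markers were at 935 to 1114 against 720 to 780, most of it Glis3. Prox1 was lower in old mice, at 20.0 to 31.1 against 32.8 to 44.5, and 2 of the 8 granule markers had a higher mean. CA1 markers were at 163 to 243 against 82.1 to 151. Of 34 called increases with a value in both classes 44.1% were at least 2-fold higher in granule-like nuclei, against 11.3% of all tested, and their part in these results was not tested. With the span trend removed 9 genes were called in this class, and 11 with the 6 ad libitum libraries fitted alone.

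Microglia-like nuclei were few, 20 to 181 per library, and young replicate 1 contributed 20 with 25571 UMIs. Cadm1, a cell adhesion protein of the immunoglobulin family (chromosome 9, 47530173 to 47857637, plus strand, GRCm38), was at 10.70, 10.52 and 10.85 log2 CPM in old and 8.97, 9.12 and 9.50 in young mice, a rise of 1.41 (SE 0.19, edgeR adjusted p = 1.617e-05). March3, a ubiquitin ligase, rose by 2.42 (SE 0.38) on 2 to 7 UMIs in young and 24 to 61 in old mice, and Ank, a pyrophosphate and citrate transporter, by 1.82 (SE 0.31). Cacnb4, a calcium channel subunit, had 0, 9 and 17 UMIs in young and 15, 77 and 43 in old libraries.

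Gpr34, a lysophosphatidylserine receptor of resting microglia, was at 8.93, 8.82 and 8.74 log2 CPM in old and 10.25, 10.04 and 9.43 in young microglia-like nuclei, a fall of 1.04 (SE 0.23, edgeR adjusted p = 0.01093). It was called in 3 of 6 fits that left out an ad libitum library. Gpr34 was the 1 called gene of 11 tested on the homeostatic list, in a class where 0.661% of all tested genes were lower, and all 11 fold changes were below zero (median -0.2, against 0.003 over all tested). None of 6 tested activation genes and none of 5 interferon response genes was called, and most of those lists had too few UMIs to be tested. Drg1, a GTPase gene, fell by 1.24 (SE 0.30), Myo1d, an unconventional myosin, by 1.65 (SE 0.40), and Hnrnpa2b1, an RNA-binding protein, by 0.84 (SE 0.21).

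Among the 26 increases in microglia-like nuclei were Dcc, Sox5 and Cacnb4, genes of neurons and glial precursors. Summed inhibitory neuron markers in these nuclei were 172 to 434 CPM in old and 39.1 to 109 in young mice, with a higher mean in old mice for 9 of 11. Summed granule markers were 1266 to 1519 and 1568 to 1877, most of it Dock10, and 3 of 8 had a higher mean in old mice. Of 25 called increases with a value in both classes 24% were at least 2-fold higher in granule-like nuclei, against 6.69% of all tested. Their part in the increases was not tested.

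Granule-like nuclei numbered 795 to 4579 per library. Summed microglial markers in them were 32.6 to 57.3 CPM in old and 52.4 to 228 in young libraries, and summed mural markers 9.63 to 11.5 and 13.4 to 30.9. Other sums were higher in old mice, CA1 markers at 371 to 432 against 264 to 359, CA3 markers at 441 to 495 against 317 to 437 and precursor markers at 1201 to 1271 against 992 to 1012, and their part in the granule-like results was not tested. Camk2d, the delta isoform of calcium/calmodulin-dependent kinase II (chromosome 3, 126596302 to 126846326, plus strand, GRCm38, ENSMUSG00000053819), was at 7.16, 7.20 and 7.12 log2 CPM in old and 5.55, 5.49 and 5.52 in young mice. The gap between the ages was far wider than the spread within either, and restricted mice ranged from 6.84 to 7.24. The rise was 1.64 (SE 0.10, edgeR adjusted p = 5.838e-06), 3.12-fold. At 1000 UMIs per nucleus 13.7%, 12.4% and 12.3% of old granule-like nuclei held a Camk2d molecule, against 4.17%, 4.32% and 4.33% of young ones. Camk2d overlaps 7 annotated genes on its strand and 1 on the other.

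Grm8, a presynaptic metabotropic glutamate receptor, was at 7.47, 7.53 and 7.79 log2 CPM in old and 5.56, 5.92 and 5.82 in young mice, a rise of 1.83 (SE 0.12, edgeR adjusted p = 6.383e-06). Nrg1, the ligand of ErbB receptors, was at 10.80, 10.93 and 11.04 against 9.53, 9.30 and 9.52, a rise of 1.47 (SE 0.14). After thinning, 71.3%, 73.6% and 75.6% of old granule-like nuclei held Nrg1 against 40.3%, 41.7% and 43.1% of young ones. Cobl, an actin nucleator, rose by 1.53 (SE 0.15), and Ephb1, an ephrin receptor, by 0.91 (SE 0.11).

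Robo1 fell in granule-like nuclei, opposite to its rise in oligodendrocyte-like nuclei. It was at 6.35, 6.02 and 5.76 log2 CPM in old and 7.75, 7.13 and 7.48 in young mice, a fall of 1.42 (SE 0.21, edgeR adjusted p = 0.008939). Thinned, 6.29%, 5.64% and 5.08% of old nuclei held it against 17.8%, 14.4% and 16.4% of young ones. Pappa2, a protease of insulin-like growth factor binding proteins, fell by 1.44 (SE 0.26), and Il1rapl2, a synaptic adhesion protein, by 1.14 (SE 0.20). Rbis, a ribosome biogenesis factor, fell by 0.87 (SE 0.12), Gabarapl2, an autophagosome protein, by 0.77 (SE 0.12), and Timmdc1, an assembly factor of respiratory complex I, by 0.71 (SE 0.12).

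Signalling lists had called members in granule-like nuclei, read against 2.42% of all tested genes called higher and 0.87% lower. Of 21 insulin, IGF and FoxO genes Igf1r (0.69, SE 0.13), Insr (0.46, SE 0.10), Mtor (0.45, SE 0.10) and Foxo1 (0.41, SE 0.10) rose and 0 fell. Of 17 clock genes Hlf (0.54, SE 0.11) and Cry2 (0.34, SE 0.08) rose. Fitted in single clusters of granule-like nuclei, Igf1r was called in 4 of 5, Hlf in 3 and Insr in 2. Mtor, Foxo1 and Cry2 were called in 1 each. Of 18 immediate early genes Bdnf, a neurotrophin, rose by 0.45 (SE 0.11) over all granule-like nuclei, but by 0 to 0.65 in single clusters of them and called in 1 of 5. Junb fell by 0.87 (SE 0.22) and Ier2 by 2.16 (SE 0.46), the last on 1 to 5 UMIs in old and 10 to 18 in young libraries. Axon guidance genes had 5 higher and 1 lower of 30, potassium channels 4 higher of 23 and cadherins 4 higher of 20.

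None of 8 tested genes of immature neurons and none of 77 oxidative phosphorylation subunits was called in granule-like nuclei. All 81 tested ribosomal protein genes had fold changes below zero, and 3 of them were called lower (Rpl7 by 0.74, Rpl23a by 0.81 and Rps12 by 0.68). Of all tested genes in this class 0.87% were called lower. Within single granule clusters Rpl7 and Rpl23a were called in 0 of 5 and Rps12 in 1. With the span trend removed the median of that list was -0.025 in place of -0.46. Mobp, a myelin gene, rose by 1.90 (SE 0.43) on 10 to 71 UMIs per library. Summed oligodendrocyte markers were 326 to 368 CPM in old and 289 to 319 in young granule-like nuclei, and their part in the value of Mobp was not tested.

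The heat map of gene lists sets these counts side by side across classes. Fitted on the 6 ad libitum libraries alone, 10 genes were called higher and 2 lower in granule-like nuclei, and with a term for the libraries numbered 1 the counts were 1482 and 2037. In the fit of 6 libraries 554 of the 556 genes had the same direction. Both fits compare the same 6 libraries, so the shared direction adds no support.

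**Figure D3:**
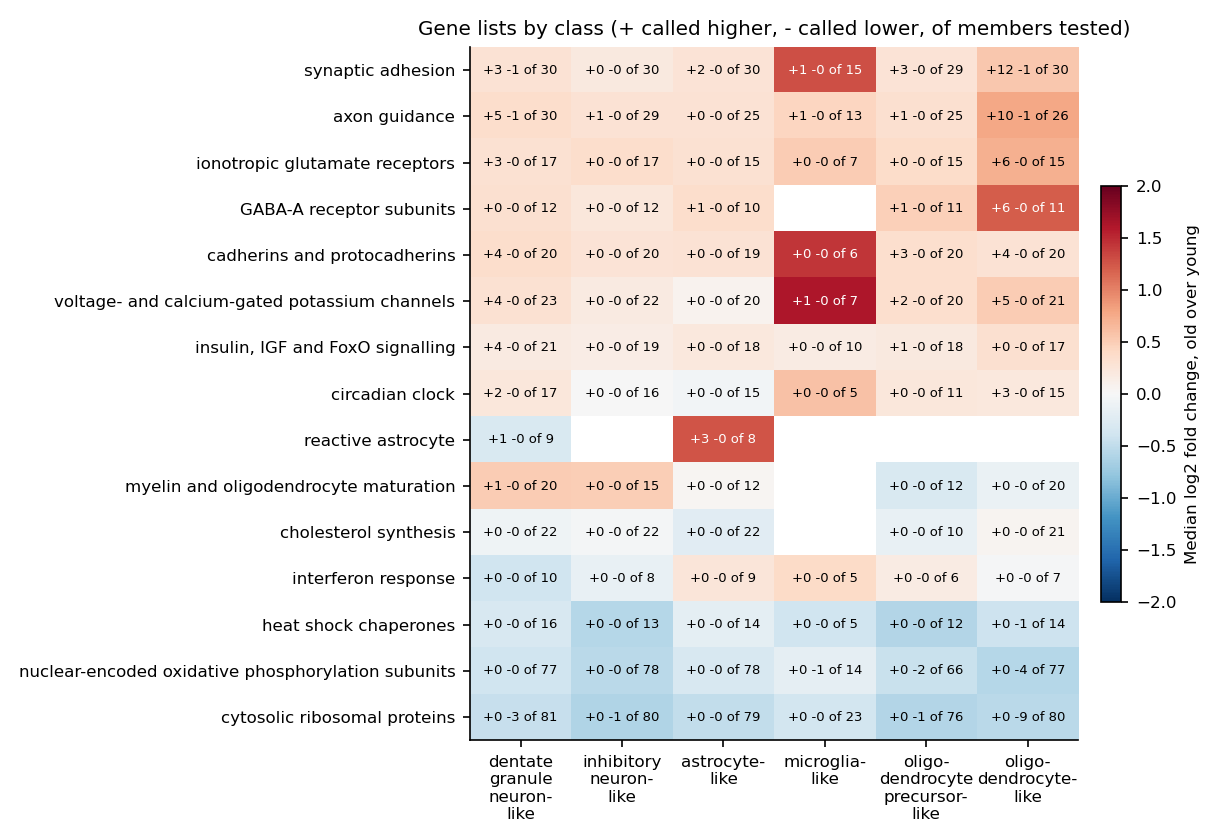
Median log2 fold change of old against young (colour) of the tested members of each gene list (rows) in each class (columns), with the numbers called higher and lower of those tested written in each cell. Synaptic adhesion in oligodendrocyte-like nuclei shows 12 higher and 1 lower of 30, and ribosomal proteins 0 higher and 9 lower of 80.

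Granule-like nuclei formed 5 clusters, and old and young mice filled them unequally. Cluster 0 held 26.8%, 28.6% and 19.6% of the granule-like nuclei of old replicates 1, 2 and 4 and 35.9%, 61.2% and 48.4% of those of young replicates 1, 2 and 3. Cluster 4 held 18.2%, 17.1% and 33.6% against 9.96%, 11.01% and 7.70%, and cluster 5 13.8%, 25.0% and 21.1% against 5.02%, 3.15% and 8.28%. The ages did not overlap in these 3 clusters and overlapped in clusters 1 and 13. The clusters were built from the same genes that differ with age, so these shares are a description and were given no weight as a test.

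Age differences were therefore also fitted within each cluster. Cluster 0 had 303 genes higher (2.12%) and 114 lower (0.797%), cluster 1 had 146 (1.05%) and 42 (0.302%), and cluster 4 had 610 (4.7%) and 315 (2.43%). Cluster 5 had 128 (1.06%) and 64 (0.528%), and cluster 13 had 37 (0.407%) and 47 (0.517%). Old replicate 1 held 18 nuclei of cluster 13, under the minimum of 20, so that fit rests on 2 old libraries. Of the 556 genes called over all granule-like nuclei, 423 were called in at least 1 cluster. In all 5 clusters 12 genes were called higher and 0 lower, among them Camk2d (1.47 to 1.97), Tmem132d (1.47 to 2.25), Nrg1 (0.69 to 1.62) and Grm8 (0.58 to 2.19).

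The other 8 of those 12 were Aff3, B230209E15Rik, Cdh18, Cobl, Grik4, Hs6st3, Maml2 and Zfp804b, with values in single clusters of 0.51 to 2.02. Robo1 was lower in each cluster, by 0.66 to 2.25, and called in 4 of 5. Camk2d, Grm8, Nrg1 and Cobl were called in each of 6 fits of all granule-like nuclei that left out an ad libitum library, Rbis in 5 of 6 and Robo1 in 4 of 6.

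**Figure D4:**
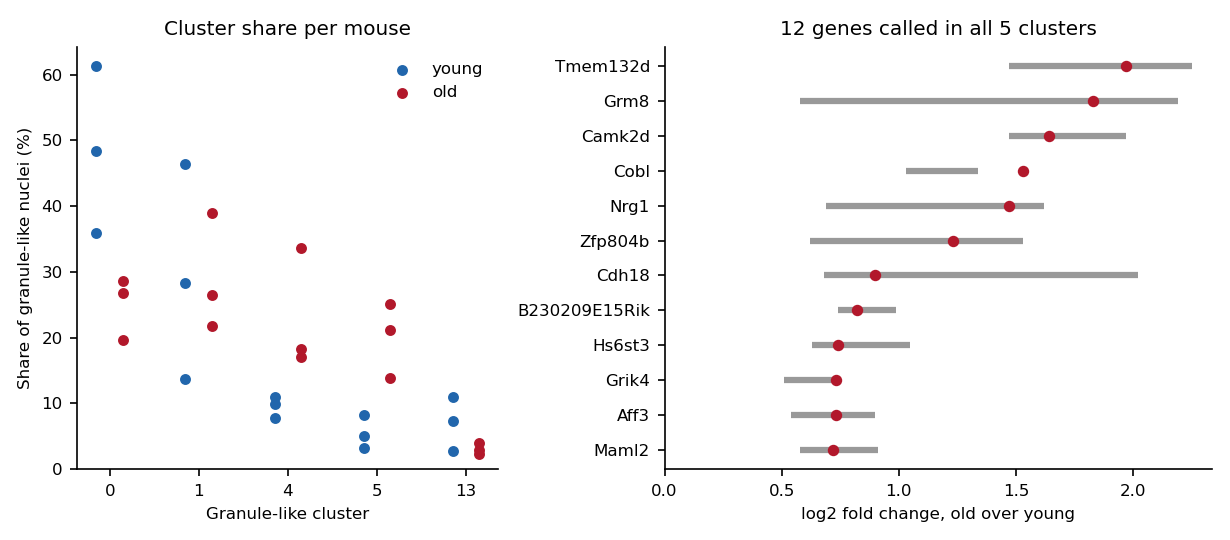
Share of granule-like nuclei in each of the 5 granule clusters (y axis, percent) in each ad libitum library, old and young side by side (left), and the log2 fold change of the 12 genes called in all 5 clusters (right, x axis), with a point for all granule-like nuclei and a grey bar from the lowest to the highest single cluster. Cluster 0 is lower in old mice (19.6% to 28.6% against 35.9% to 61.2%), clusters 4 and 5 are higher with no overlap, and all 12 bars lie above zero.

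In inhibitory neuron-like nuclei the called genes were near the threshold. Dock10, a guanine nucleotide exchange factor, rose by 0.60 (SE 0.10), Plxna4, a semaphorin coreceptor, by 0.64 (SE 0.12), and Prkg1, a cGMP-dependent kinase, by 0.82 (SE 0.15). St6galnac5, Cpne4, Stx8 and Carmil1 rose by 0.53 to 0.75. Gabarapl2 was at 5.25, 4.81 and 4.57 log2 CPM in old and 5.79, 6.13 and 5.67 in young mice, a fall of 0.96 (SE 0.17, edgeR adjusted p = 0.04658). Cfl2 fell by 0.94, Rpl13 by 0.84 and Exoc7 by 0.79. None of these genes was called in more than 3 of 6 fits that left out an ad libitum library. Dock10 is also a granule marker, and summed granule markers in these nuclei were 251 to 319 CPM in young and 345 to 381 in old mice, with a higher mean in old mice for 4 of 8. Summed CA1 markers were 392.5 to 453 and 478 to 515 (3 of 7). CA3 markers were 1122 to 1288 and 1329 to 1448 (5 of 8), and precursor markers 1209 to 1292 and 1351 to 1420 (5 of 8). Of the 8 increases 50% were at least 2-fold higher in granule-like nuclei, against 6.93% of all tested. Their part in these values was not tested.

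Cajal-Retzius neuron-like nuclei, early-born neurons of the outer molecular layer that secrete reelin, numbered 21 and 28 in the qualifying old libraries and 61 and 86 in the young ones. The ones in old replicate 1 (3 nuclei) and young replicate 1 (10) were too few. Dlgap1, a postsynaptic scaffold protein, had 99 and 41 UMIs in old and 37 and 13 in young mice (rise of 2.06, SE 0.33). Of the 98 increases 84.7% were at least 2-fold higher in granule-like nuclei, against 7.44% of all tested. Summed granule markers in these nuclei were 580 to 795 CPM in old and 219 to 228 in young mice, with a higher mean in old mice for 5 of 8 and with Lct and Trhr at 0. Most of the sum was Dock10, itself called in this class, and Glis3. With doublets kept 12 named genes of this class changed sign, Dock10 among them. Prox1 was higher in old mice, at 30.5 to 91.2 CPM against 0 to 8.76, on 10 UMIs in all. C1ql3 was lower, at 30.5 to 39.1 against 61.3 to 81.5. Summed precursor markers were 305 to 547 CPM in old and 97.8 to 105 in young mice (7 of 8 with a higher mean). Inhibitory neuron markers were 2092 to 2163 and 1303 to 1515 (8 of 11). The part of these markers in the increases was not tested.

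Across the 7 classes with calls 1496 distinct genes were called, 4 of them in both directions, and 78 were called in 3 or more classes in 1 direction. Of those 78, 52 were higher and 26 lower, 8 of the lower ones under clone names. Cadm1 rose in 5 classes: by 0.56 (SE 0.12) in astrocyte-like, 0.54 (SE 0.13) in granule-like, 1.41 (SE 0.19) in microglia-like, 0.79 (SE 0.14) in oligodendrocyte-like and 0.45 (SE 0.11) in precursor-like nuclei. Lrmda, a gene of melanocyte differentiation, rose by 0.64 to 1.04 in the same 5 classes. Dgkb, a diacylglycerol kinase, Dlg2, a postsynaptic scaffold, and Prkg1 rose in 4 classes each. With the span trend removed Cadm1, Dgkb and Prkg1 were each called in 1 class, and Lrmda and Dlg2 in 0. Dlg2 then changed sign in oligodendrocyte-like nuclei (-0.41), and Lrmda in oligodendrocyte-like (-0.12) and microglia-like nuclei (-0.082). With doublets kept Dlg2 was at -0.084 in Cajal-Retzius nuclei.

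Gabarapl2, whose protein takes part in autophagosome formation, fell in granule-like, inhibitory, oligodendrocyte-like and precursor-like nuclei by 0.77 to 1.10. Mettl23 fell in granule-like, microglia-like, oligodendrocyte-like and precursor-like nuclei by 1.19 to 1.69. Igf2bp3 fell in 3 classes by 0.95 to 1.27, and Cox7c, a subunit of cytochrome c oxidase, in 3 by 1.07 to 1.61. C4b rose in astrocyte-like, granule-like and oligodendrocyte-like nuclei by 1.94 to 3.92. In granule-like nuclei it rose by 2.29, but it had enough UMIs to be tested in 1 of 5 granule clusters and was called in 0. The part of RNA from other cells in that value was not tested. With the span trend removed Mettl23, Igf2bp3 and C4b were each called in 2 classes, and Gabarapl2 and Cox7c in 0. Classes of 1 library share its animal and its handling, so a gene called in several classes is not that many independent observations.

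The 250 bases before the RefSeq start sites of genes that moved in 4 or 5 classes are shown so that the regions upstream of genes that rose and fell can be read side by side. Of 7 such genes with a common symbol, RefSeq's GRCm38.p6 table gave exactly 1 entry for 4. The capitals mark matches, on either strand, to a CCAAT box (CCAAT) or a GC box (GGGCGG), and a TATA box (TATAAA) and a cAMP response element (TGACGTCA) were also searched. All lie on the plus strand, at chr8:111940453-111940702 for Gabarapl2, chr11:116843265-116843514 for Mettl23 and chr14:22019462-22019711 for Lrmda.
Gabarapl2: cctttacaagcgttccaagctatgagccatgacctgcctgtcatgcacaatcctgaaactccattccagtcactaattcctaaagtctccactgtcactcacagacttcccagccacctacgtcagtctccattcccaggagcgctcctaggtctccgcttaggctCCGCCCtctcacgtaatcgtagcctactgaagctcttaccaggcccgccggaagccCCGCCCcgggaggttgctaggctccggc
Mettl23: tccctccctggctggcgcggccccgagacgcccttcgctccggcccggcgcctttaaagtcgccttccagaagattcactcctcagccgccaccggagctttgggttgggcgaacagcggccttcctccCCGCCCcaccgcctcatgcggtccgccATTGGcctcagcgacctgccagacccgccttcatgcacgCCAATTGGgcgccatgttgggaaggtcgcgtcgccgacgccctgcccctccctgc
Lrmda: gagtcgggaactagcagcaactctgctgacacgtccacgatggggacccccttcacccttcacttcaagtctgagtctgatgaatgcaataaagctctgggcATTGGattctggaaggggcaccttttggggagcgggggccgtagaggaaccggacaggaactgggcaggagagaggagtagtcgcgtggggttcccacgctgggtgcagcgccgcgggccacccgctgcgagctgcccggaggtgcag
Gabarapl2 held 2 GC boxes, Mettl23 held 3 CCAAT boxes, 2 of them overlapping on opposite strands, and 1 GC box, and Lrmda held 1 CCAAT box. Over 27025 mouse promoters of the same length 34.5% held a CCAAT box, 32.9% a GC box, 13% a TATA box (3504 promoters) and 1.62% the cAMP response element. The window of Dgkb held none of the 4 motifs. CG dinucleotides numbered 12, 26 and 15 in Gabarapl2, Mettl23 and Lrmda and 3 in Dgkb, against a median of 6 over all. A match is only a run of letters.

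Age effects differed between classes for some genes, tested as the class by age term in fits that paired 2 classes per library. Granule-like and oligodendrocyte-like nuclei differed in 173 genes (1.09% of those tested), precursor-like and oligodendrocyte-like in 80 (0.731%), astrocyte-like and oligodendrocyte-like in 46 (0.365%) and microglia-like and oligodendrocyte-like in 29 (0.371%). Granule-like differed from microglia-like nuclei in 44 (0.276%), from precursor-like in 41 (0.255%) and from astrocyte-like in 18 (0.108%). Microglia-like differed from astrocyte-like nuclei in 22 (0.249%) and from precursor-like in 12 (0.124%), and astrocyte-like from precursor-like in 7 (0.061%). Robo1 and Nckap5 were called in opposite directions in the classes of a pair. For Robo1 the effect in granule-like nuclei was 2.48 lower than in oligodendrocyte-like nuclei (SE 0.21), and Nckap5 fell by 0.76 in oligodendrocyte-like and rose by 0.50 in precursor-like nuclei.

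The makeup of the libraries differed less clearly. Granule-like nuclei were 28.9%, 45.4% and 49.4% of named nuclei in old replicates 1, 2 and 4 and 57.5%, 60.1% and 55.1% in young replicates 1, 2 and 3. Precursor-like nuclei were 4.91%, 4.53% and 6.60% against 2.64%, 2.81% and 2.63%. The ages did not overlap in these 2 classes, each at an exact two-sided permutation p of 0.1, the smallest that 3 against 3 allows, and 0.7 adjusted over 14 classes. Oligodendrocyte-like nuclei were 4.00%, 19.4% and 19.6% in old and 0.767%, 9.60% and 9.06% in young mice, where old replicate 1 lay within the young range. Astrocyte-like (27.9%, 3.68% and 1.57% against 7.32%, 7.12% and 9.60%) and microglia-like nuclei (1.24%, 2.12% and 1.50% against 0.326%, 1.33% and 2.40%) overlapped, and shares of one whole cannot move independently.

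**Figure D5:**
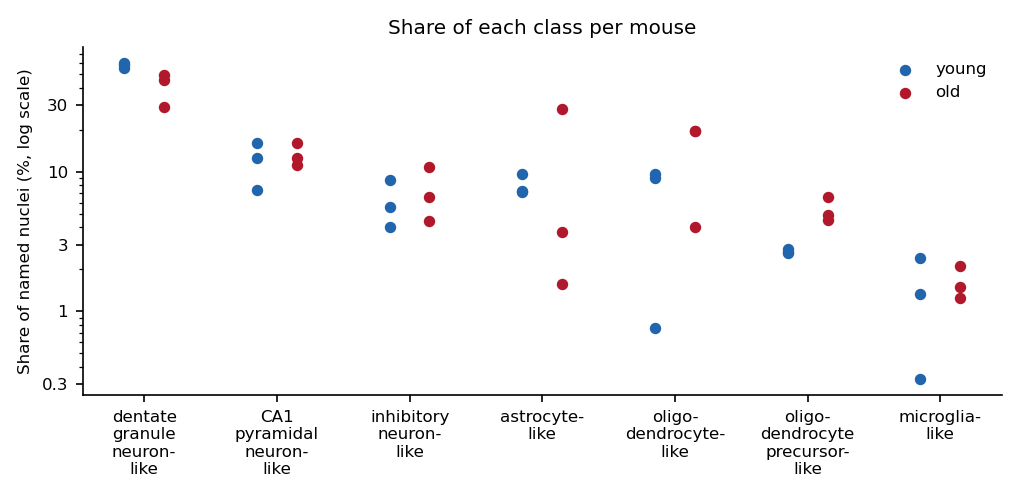
Share of named nuclei in each class (percent, log axis) in each ad libitum library, old and young side by side. Precursor-like nuclei are higher (4.53% to 6.60% against 2.63% to 2.81%) and granule-like nuclei lower in old mice (28.9% to 49.4% against 55.1% to 60.1%) with no overlap, and the other large classes overlap.

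The share of nuclei holding a transcript was computed for 58 gene and class pairs after thinning each nucleus to 1000 UMIs. All 58 had the direction of the fitted change, and in 51 old and young libraries did not overlap. In the microglia-like pairs young replicate 1 had 16 nuclei deep enough and gave no thinned value, so 3 old and 2 young libraries were compared. Without thinning 40 of 58 had that direction with no overlap. The genes were chosen for their change in the same nuclei, so these shares describe how it was spread over nuclei and add no independent test.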

How the data were processed

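Single-nucleus libraries of the 10x Genomics v3 chemistry were deposited as raw UMI counts per gene and barcode, made with Cell Ranger 4.0.0 per the file headers and aligned to mm10 per the submitters' processing notes. From these counts, 105427 of 105759 barcodes were kept, those holding 500 genes or more and a mitochondrial share of UMIs of 5% or less. All kept barcodes were clustered on 2000 variable genes (30 principal components, 20 neighbours, Leiden resolution 1). Doublets were the barcodes of highest Scrublet score (scanpy 1.11.5), in a number preset per library at 0.8% per 1000 barcodes, and 7386 were removed. Among the ad libitum libraries that was 99 of 3516 barcodes (old replicate 1) to 809 of 10059 (old replicate 2). A cluster took a class name when at least 3 markers and 60% of those listed were raised by a log2 fold of 1 or more and the mean log2 fold of its markers was at least 1. It stayed unnamed when another class had more markers among its 10 leading genes or when 50% or more of its barcodes were doublets. This naming rule was set after the data were seen. Counts were summed per library and class with at least 20 nuclei and fitted over all 4 groups in edgeR 4.0.16 (TMM, quasi-likelihood). Named genes were, per class and direction, the 5 of smallest adjusted p with no overlap and a median of at least 10 UMIs in the higher group that were also called with a term for number 1, plus called members of 28 gene lists, genes called in 3 or more classes and the 3 leading genes of each of 10 class pairs. The comparison, the lists and the tests were chosen with earlier results of these data known. Spans come from GENCODE M21 (GRCm38). On simulated counts with the oligodendrocyte-like sums (11368 genes), 40% of 2-fold and 80% of 4-fold changes were recovered with 12 false calls, and with the granule-like sums (16900 genes) 50% and 80% with 10. Alternatives were DESeq2 1.42.0, RLE factors, no filter, covariates, blocks, thinned nuclei, other clusters and leaving out each library. Unnamed nuclei were left out, and 2 genes that the rule would name are not reported here.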

Additional observations from a re-analysis of the deposited data

Results flagged for a closer look

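The values here are differences between 2 classes in the old against young log2 fold change, the 3 genes of smallest adjusted p in each of 10 pairs of classes. They were picked out because the class by age term passed an edgeR adjusted p of 0.05. That does not require a call in a single class, and Bmp6, Nr6a1, Arhgap15, Hpgds, Pde3a and Arhgap24 were called in neither class of their pairs. Classes of one library share its animal.

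Against astrocyte-like nuclei, the effect in granule-like nuclei was higher for Camk2d (1.56) and lower for Bmp6 (-2.51), a growth factor of the TGF-beta family, and Robo1 (-1.79). The effect in microglia-like nuclei was higher for March3 (3.05) and Naalad2 (4.91, with too few UMIs in astrocyte-like nuclei to be tested there alone, so its size depends on the prior count) and lower for Nr6a1 (-1.31), an orphan nuclear receptor. Against microglia-like nuclei, the effect in granule-like nuclei was lower for Arhgap15 (-3.31), a GTPase-activating protein, Naalad2 (-3.44) and Hpgds (-1.74), a prostaglandin synthase. Hpgds was at 0.06 in microglia-like nuclei and -1.41 in granule-like nuclei, where summed microglial markers averaged 0.342 times their young level, and the part of those markers was not tested. Bmp6 was a leading gene of a fibroblast-like cluster. Summed fibroblast markers in granule-like nuclei averaged 0.577 times their young level, and their part in the value of Bmp6 was not tested.

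Against oligodendrocyte-like nuclei, the effect in astrocyte-like nuclei was lower for Mgat4c (-2.50), Celf2 (-1.36), an RNA-binding protein, and Grip1 (-2.28), a glutamate receptor scaffold. In granule-like nuclei it was lower for Cdh8 (-2.36) and Robo1 (-2.48) and higher for Camk2d (1.83). In microglia-like nuclei it was higher for Cd180 (2.19) and lower for Celf2 (-1.42) and Ccdc85a (-1.63). In precursor-like nuclei it was lower for Nrg1 (-2.64), Chst9 (-2.93) and Erc2 (-1.75), a protein of the presynaptic active zone.

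Against precursor-like nuclei, the effect in astrocyte-like nuclei was lower for Pde3a (-2.35), Mgat4c (-0.90) and Tead1 (-1.03). In granule-like nuclei it was higher for Camk2d (1.19) and Sorcs1 (0.97) and lower for Robo1 (-1.82). Sorcs1 rose by 1.44 over all granule-like nuclei, but by 0.06 to 1.17 in single granule clusters and called in 0 of 5. In microglia-like nuclei it was higher for Cacnb4 (2.10), Arhgap15 (4.11) and Arhgap24 (1.79). With the 6 ad libitum libraries fitted alone, the adjusted p of Mgat4c and Tead1 in the astrocyte and precursor pair were 0.1208 and 0.08122.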

How the results depend on the processing

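The number of calls moved with the processing, and the directions of named genes mostly did not. Named genes were picked from fits of these same libraries, the leading ones also for no overlap and for a call with the term for number 1. Their kept directions therefore add no support. Over all classes the 1862 calls became 3595 with DESeq2, 2849 with no filter, 818 with the length trend removed, 98 with median UMIs as a covariate, 1168 in thinned nuclei, 6636 with a term for number 1, 6959 with the libraries numbered 1 left out (chosen after seeing the data) and 5155 with the file number as a block. The cause was not tested.

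The labels do not say what a replicate number marks. Deviations of old and young replicates 1 correlated at 0.41, 0.31 and 0.11 in granule-like, astrocyte-like and oligodendrocyte-like nuclei, and those of replicates 2 at -0.12, 0.050 and 0.070. Pairs of unlike number ran from -0.51 to 0.45, from -0.29 to 0.13 and from -0.11 to 0.12 in those classes. The highest pair in granule-like nuclei was old replicate 4 with young replicate 2. With the replicate block 5601 genes were called in all, 285 in astrocyte-like, 2656 in granule-like, 701 in inhibitory, 113 in microglia-like and 680 in precursor-like nuclei.

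By class, DESeq2 called 231 genes in CA1-like, 137 in CA3-like, 53 in Cajal-Retzius, 162 in astrocyte-like, 1816 in granule-like, 463 in inhibitory and 471 in oligodendrocyte-like nuclei. The file number block gave 10 in CA3-like, 192 in astrocyte-like, 2477 in granule-like, 706 in inhibitory, 116 in microglia-like and 518 in precursor-like nuclei. The term for number 1 gave 1 in CA1-like, 17 in CA3-like, 370 in astrocyte-like, 3519 in granule-like, 782 in inhibitory, 129 in microglia-like and 667 in precursor-like nuclei. Leaving out the libraries numbered 1 gave 683, 279, 548, 2852, 913, 152 and 468 in those classes. With no filter there were 9 in CA3-like, 146 in astrocyte-like, 3 in endothelial, 153 in inhibitory, 149 in microglia-like, 5 in mural and 593 in precursor-like nuclei. With the length trend removed there were 9 in astrocyte-like, 74 in granule-like, 0 in inhibitory, 26 in microglia-like, 553 in oligodendrocyte-like and 20 in precursor-like nuclei. Median UMIs as a covariate left 75 in Cajal-Retzius, 7 in astrocyte-like, 4 in granule-like, 0 in inhibitory, 4 in microglia-like, 8 in oligodendrocyte-like and 0 in precursor-like nuclei. Thinned nuclei gave 23 in Cajal-Retzius, 23 in astrocyte-like, 25 in inhibitory and 551 in oligodendrocyte-like nuclei. The ad libitum libraries alone gave 11 in astrocyte-like, 12 in granule-like and 0 in inhibitory nuclei, doublets kept gave 53 in Cajal-Retzius and 0 in inhibitory, and RLE factors 7 in inhibitory nuclei.

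Leaving out 1 ad libitum library gave 322 calls (without young replicate 2) to 4156 (without young replicate 1), with 506 without old replicate 2, 841 without old replicate 4 and 1194 without old replicate 1. By class the range was 0 to 46 in CA3-like, 82 to 151 in Cajal-Retzius, 14 to 230 in astrocyte-like, 19 to 2278 in granule-like, 0 to 254 in inhibitory, 5 to 84 in microglia-like, 0 to 4 in mural, 121 to 931 in oligodendrocyte-like and 27 to 352 in precursor-like nuclei, and 0 in CA1-like and endothelial nuclei.

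Differences between classes numbered 85 (granule and astrocyte), 71 (granule and microglia), 66 (microglia and oligodendrocyte), 18 (astrocyte and precursor), 93 (granule and precursor) and 61 (microglia and precursor) with a term for number 1. The ad libitum libraries alone gave 355 (granule and oligodendrocyte), 131 (precursor and oligodendrocyte), 3 (astrocyte and precursor) and 114 (granule and precursor). Pairs with thinned detection shares and no overlap numbered 51 to 57 when a library was left out.

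Differences in share, in log2 odds, ran over libraries left out from -0.13 to 0.49 in CA1-like, -0.57 to 0.10 in CA3-like, -1.96 to -0.59 in Cajal-Retzius, -1.80 to 0.50 in astrocyte-like, -1.22 to -0.59 in granule-like, -0.60 to 1.38 in endothelial, -1.71 to 0.74 in fibroblast, -1.21 to -0.58 in mossy cell, -0.10 to 0.58 in inhibitory, -0.84 to 0.43 in macrophage, -0.17 to 1.26 in microglia-like, -0.77 to 1.27 in mural, 0.39 to 2.48 in oligodendrocyte-like and 0.84 to 1.13 in precursor-like nuclei. Without the libraries numbered 1 it was 0.21 in CA3-like, -0.32 in endothelial and -0.67 in mural nuclei, and with doublets kept 0.075 in macrophage nuclei.

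Among named genes, 12 of the Cajal-Retzius class changed sign with doublets kept: Rbfox1 -0.15, Sema5a -0.028, Dock10 -0.20, Grm5 -0.15, Il1rapl1 -0.054, St6galnac3 -0.13, Dlg2 -0.084, Lrrtm4 -0.58, Grik2 -0.14, Grin2a -0.21, Cadm2 -0.12 and Cntnap5a -0.42. Efna5 was -0.13 in granule cluster 5 alone. With the length trend removed Lrmda was -0.082 in microglia-like nuclei, and in oligodendrocyte-like nuclei 17 genes changed sign: Fgf12 -0.056, Sema6d -0.16, Rora -0.22, Dock4 -0.056, Adgrl3 -0.28, Sorcs1 -0.10, Tenm2 -0.29, Cdh20 -0.10, St6galnac3 -0.34, Dlg2 -0.41, Phactr1 -0.25, Smyd3 -0.20, Kcnq3 -0.077, Sorcs3 -0.15, Lrmda -0.12, Nlgn1 -0.43 and Cadm2 -0.32. No named gene changed sign in the other alternatives run, which refit the same libraries that the genes were picked from. Terms for number 1 and blocks were not run in Cajal-Retzius nuclei, nor thinned sums in endothelial and mural nuclei. Depth limits the microglia-like, Cajal-Retzius, endothelial and mural values, which rest on few nuclei.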
